A study of Mus musculus with 11 samples.

Results

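A set of 9 co-inhibitory checkpoint genes was followed in regulatory T cells (Tregs) that had been sorted from mouse MC38 tumors or spleens. They comprised 7 receptors (Ctla4, Pdcd1, Lag3, Havcr2, Tigit, Btla and Cd160) and the 2 ligands of PD-1 (Cd274 and Pdcd1lg2). They were chosen by name from the 14604 genes listed in the deposited table, and all 9 were among the 13897 genes that passed the filter on low values. RNA of tumor-infiltrating Tregs (TI-Tregs) was sequenced in 5 libraries, 3 from wild-type and 2 from knockout mice, and RNA of splenic Tregs in 6 libraries, 3 of each genotype. All mice carried implanted MC38 tumors, a colon carcinoma line, and all carried floxed alleles of Cd177. Wild-type mice had the genotype CD177flox/flox alone, and knockout mice CD177flox/flox/FOXP3-CreYFP, in which Cre recombinase is driven from the Foxp3 locus so that the deletion is directed to Tregs. Live cells were gated as CD4+GITR+CD25+, which does not include FOXP3 itself. The values are log2(n + 1), where n is the estimated count of a gene as the authors scaled it, and a difference of 1 on this scale is close to a doubling where n is well above 1.

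Co-inhibitory receptors lower the response of a T cell once it has met antigen. CTLA-4 binds CD80 and CD86 more tightly than the stimulatory receptor CD28 does. PD-1, encoded by Pdcd1, is engaged by PD-L1 (Cd274) and PD-L2 (Pdcd1lg2), and its cytoplasmic tail recruits phosphatases. LAG-3 binds MHC class II, TIM-3 (Havcr2) binds galectin-9, CEACAM1 and phosphatidylserine, TIGIT competes with CD226 for PVR and nectin-2, and BTLA and CD160 share the ligand HVEM (Tnfrsf14). Tregs carry CTLA-4 constitutively as part of their suppressive machinery, and several of the other receptors are known on activated Tregs of tumors.

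The level of Cd177 was not analysed here, and the genotypes were taken as labelled, without a check against the deleted gene. The Treg markers Cd4, Foxp3, Il2ra (CD25), Tnfrsf18 (GITR) and Ikzf2 (Helios) were at 4.72 or above in every library. Of the 5, 3 were lower in tumor than in spleen. Foxp3 differed by -0.85, Ikzf2 by -1.09 and Cd4 by -0.42, Tnfrsf18 was higher by 1.08, and Il2ra differed by -0.27 (limma, adjusted p = 0.123). Relative to the Cd3 genes, described below, 1 of the 5 was lower and 1 higher. Of these, Cd4, Il2ra and Tnfrsf18 encode proteins used in the sort gate. Total n was 712832 to 844331 in the spleen libraries and 1103159 to 1304548 in the tumor libraries, and a single processed pseudogene, Gm12896, held 31.4 to 42.4% of it. Markers of other cell types also differed between the tissues. By limma at an adjusted p below 0.05, 43.1% of all genes tested were higher in tumor and 35.9% lower. All 12 myeloid markers were higher in tumor, with a summed log2 level of 13.38 to 13.92 against 7.93 to 8.82 in spleen, and so were all 4 fibroblast markers tested, 8.83 to 9.94 against 1.10 to 1.64. Of the 10 CD8 T and NK cell markers, 6 were higher in tumor and 1 was lower, with sums of 8.06 to 9.42 and 5.55 to 6.57. No marker tested in these lists was at 0 in a library, but neither was any of the 14604 genes listed. This therefore does not show that a cell type was present. In RNA of sorted cells, fewer cells of a type and less RNA per cell cannot be told apart, and the part of these other cells in the results below was not tested.

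Promoter sequences were examined because 7 of the 9 genes moved in the same direction between the tissues. RefSeq promoter entries on GRCm38.p6 matched 8 of the 9 genes, with Lag3 as the exception. Shown are the 250 bases upstream of the start site for the gene with the greatest rise (Havcr2), for Tigit, and for the neighbouring pair Cd274 and Pdcd1lg2, each 5′ to 3′ on the gene's own strand. Capitals mark matches, on either strand, to the AP-1 letters TGANTCA or to the NFAT core GGAAA, which reads TTTCC on the other strand.
Havcr2, chr11:46454681-46454930, plus strand: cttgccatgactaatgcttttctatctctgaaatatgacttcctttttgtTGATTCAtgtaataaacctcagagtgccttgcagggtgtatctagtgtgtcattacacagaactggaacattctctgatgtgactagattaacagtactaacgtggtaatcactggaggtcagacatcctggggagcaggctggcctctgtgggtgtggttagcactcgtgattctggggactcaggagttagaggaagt
Tigit, chr16:43664185-43664434, minus strand: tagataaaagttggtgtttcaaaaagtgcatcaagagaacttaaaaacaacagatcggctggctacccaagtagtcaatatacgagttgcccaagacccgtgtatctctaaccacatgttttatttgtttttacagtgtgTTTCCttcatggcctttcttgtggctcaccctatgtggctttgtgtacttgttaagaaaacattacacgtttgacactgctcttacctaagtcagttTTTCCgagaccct
Cd274, chr19:29367188-29367437, plus strand: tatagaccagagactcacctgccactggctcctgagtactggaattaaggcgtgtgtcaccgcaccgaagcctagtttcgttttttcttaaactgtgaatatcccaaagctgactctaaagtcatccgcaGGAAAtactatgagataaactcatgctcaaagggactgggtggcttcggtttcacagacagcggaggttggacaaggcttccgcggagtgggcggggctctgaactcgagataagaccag
Pdcd1lg2, chr19:29410669-29410918, plus strand: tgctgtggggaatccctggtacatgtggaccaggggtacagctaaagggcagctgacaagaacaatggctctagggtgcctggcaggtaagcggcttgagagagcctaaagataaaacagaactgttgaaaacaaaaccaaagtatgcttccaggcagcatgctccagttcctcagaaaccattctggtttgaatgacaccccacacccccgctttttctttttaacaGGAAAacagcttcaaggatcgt
The AP-1 letters stood in the Havcr2 promoter, 200 bases before its start site, and in 6.75% of the 32851 promoters searched. The NFAT core was found in Ctla4, Pdcd1, Tigit, Cd274, Pdcd1lg2 and 1 of the 2 Cd160 promoters, but 55.6% of all promoters searched held it. The STAT letters TTCNNNGAA occurred in 1 Cd160 promoter and in 7.02% of all. No NF-kB, forkhead (TAAACA) or interferon-response match was found in any of the matched promoters, and these letters occurred in 1.41%, 12% and 2.98% of all. Btla, the gene with the greatest fall, held none of the 6 motifs. These matches describe letters in a window and were not tested as binding sites.

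The 9 genes lie on 6 chromosomes of GRCm38 by the GENCODE M21 annotation. Ctla4 (chr1:60887000-60915832) and Pdcd1 (chr1:94038305-94052553) share chromosome 1, and Tigit (chr16:43648867-43664146) and Btla (chr16:45224315-45257670) share chromosome 16. Cd274 (chr19:29367455-29388095) and Pdcd1lg2 (chr19:29410919-29471161) are next to each other on the plus strand, with 22824 bases between them. Lag3 (chr6:124904361-124911705), Havcr2 (chr11:46454935-46481255) and Cd160 (chr3:96798763-96829351) stand alone. Exons of Cd160 overlap those of Pdzk1 on the other strand, and exons of Cd274 overlap those of AC119228.1. The quantification is not stated to use strand, so reads of these partners may not be told apart. No near-identical copy of at least 500 bases was found for any of the 9.

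The first question was how each gene differed between TI-Tregs and splenic Tregs. The receptors Ctla4, Pdcd1, Lag3, Havcr2 and Tigit and both PD-1 ligands were higher in tumor, and Btla and Cd160 were lower. By limma with Benjamini-Hochberg adjustment over all 13897 genes, 7 of the 9 were called higher, where 43.1% of all genes tested were called higher, and 2 were called lower, where 35.9% were. The median difference of the 9 was 1.95 on the log2(n + 1) scale, and that of all genes tested was 0.08. The libraries of both tissues did not overlap for 6 genes that were higher and for Btla, against 35.2% of all genes with every tumor library above every spleen library and 28.4% with every tumor library below. The plot of values by library shows each gene in each group.

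**Figure D1:**
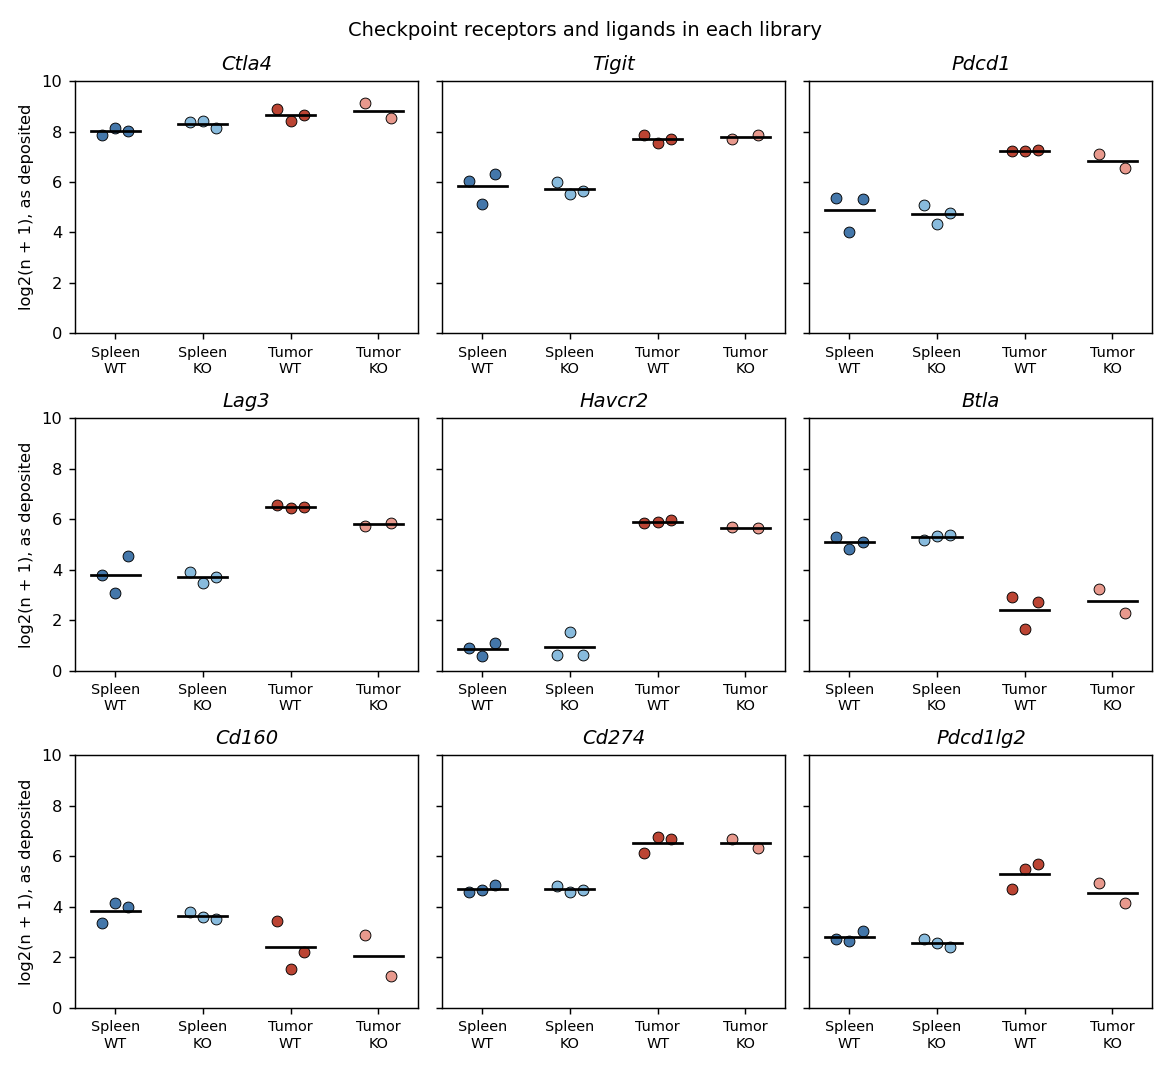
Level of each of the 9 genes as log2(n + 1) (vertical axis) in every library of the 4 groups (horizontal axis), with points for libraries and bars for group means. Tumor libraries lie above spleen libraries for Tigit, Pdcd1, Lag3, Havcr2, Cd274 and Pdcd1lg2 and below them for Btla, while the tissues overlap or touch for Ctla4 and Cd160.

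Havcr2, which encodes TIM-3, showed the greatest difference of the 9 genes. In wild-type and then knockout spleen, its log2(n + 1) values were 0.90, 0.59, 1.11, 0.63, 1.53 and 0.62, and in tumor 5.86, 5.89, 5.95, 5.69 and 5.63. The gene was close to the bottom of the scale in every spleen library and every tumor library was well above all of them. The difference was 4.91 ± 0.16 (SE, 5 against 6 libraries; adjusted p = 5.59e-11), a ratio of mean n of 59.9, and it ranked 122 among all genes by size of rise. The size of this difference depended on the pseudocount, being 5.9 with a pseudocount of 0.1 and 3.34 with 5. The spleen library with the highest Havcr2, from knockout replicate 2, also had the highest Lyz2 of the spleen libraries, 6.87 against 3.83 to 5.34 in the others. Lyz2, a lysozyme gene of myeloid cells, was between 12.02 and 12.73 in the tumor libraries. Myeloid cells are known to carry TIM-3, and the part of myeloid RNA in the Havcr2 difference was not tested.

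Pdcd1, Lag3 and Tigit rose by similar amounts. Pdcd1 was at 5.35, 4.03, 5.34, 5.08, 4.33 and 4.79 in spleen (wild type, then knockout) and at 7.21, 7.24, 7.28, 7.11 and 6.55 in tumor. The tissues did not overlap, and the difference was 2.26 ± 0.24 (SE; adjusted p = 1.48e-06), a ratio of mean n of 4.71. Lag3 was at 3.78, 3.07, 4.54, 3.91, 3.48 and 3.72 in spleen and at 6.55, 6.43, 6.50, 5.73 and 5.86 in tumor. Again every tumor library exceeded every spleen library, with a difference of 2.46 ± 0.23 (SE; adjusted p = 5.71e-07) and a ratio of 5.74. Tigit was at 6.05, 5.13, 6.30, 6.01, 5.54 and 5.64 in spleen and at 7.85, 7.54, 7.70, 7.70 and 7.85 in tumor. The tissues were apart, and the difference was 1.95 ± 0.17 (SE; adjusted p = 2.98e-07), a ratio of 3.79. In spleen these genes were uneven between libraries of one genotype. Wild-type replicate 2 had the lowest value of the 6 spleen libraries for Pdcd1, Lag3, Tigit and Havcr2, and its Foxp3 level, 6.75, was the highest of the 6. In tumor the spread of Tigit was narrower, with an SD of 0.13 against 0.42 in spleen. CD8 T cells, which also use PD-1, LAG-3 and TIM-3, have as defining marker Cd8a, which lay at 1.23 to 2.01 in spleen and 4.07 to 5.98 in tumor.

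Ctla4 had the smallest difference between the tissues. Its values were 7.86, 8.13, 8.03, 8.37, 8.41 and 8.12 in spleen and 8.90, 8.41, 8.66, 9.12 and 8.53 in tumor, so that the highest spleen and the lowest tumor library met. The difference was 0.57 ± 0.13 (SE; 95% interval 0.28 to 0.86; adjusted p = 0.0015), a ratio of mean n of 1.5. The direction of this difference depended on how libraries were scaled, being -0.29 after quantile normalization (adjusted p = 0.0931) and -0.06 with equal library totals (adjusted p = 0.716), and 0.92 relative to the Cd3 genes.

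Btla and Cd160, the receptors that share HVEM, were lower in the tumor libraries. Btla was at 5.30, 4.82, 5.11, 5.19, 5.33 and 5.38 in spleen and at 2.90, 1.65, 2.71, 3.24 and 2.27 in tumor. No tumor library reached the lowest spleen library, and Btla fell by 2.64 ± 0.23 (SE; adjusted p = 2.67e-07), 6.79 times lower in mean n and rank 66 among all genes by size of fall. Cd160 was at 3.34, 4.15, 4.01, 3.80, 3.59 and 3.53 in spleen and at 3.45, 1.54, 2.21, 2.88 and 1.24 in tumor. Wild-type tumor replicate 1 lay within the spleen range while the other tumor libraries lay below it. The difference of Cd160 was -1.47 ± 0.34 (SE; adjusted p = 0.00143), 2.72 times lower in mean n. BTLA is abundant on B cells, and the 4 B cell markers tested were all lower in tumor, with a median difference of -1.18 and summed levels of 2.05 to 4.02 against 3.63 to 5.59 in spleen. Relative to the Cd3 genes, 2 of the 4 were called lower, with a median of -0.83. The spleen library with the highest B cell sum, knockout replicate 2 at 5.59, had a Btla level of 5.33. This was near the top of the range of 4.82 to 5.38 of all spleen libraries, and only knockout replicate 3 was higher. CD160 is known on NK and CD8 T cells. Of their 10 markers, 6 were higher in tumor, among them Gzmb (5.43), Prf1 (3.03), Klrd1 (2.76) and Nkg7 (2.35), and Klrb1c alone was called lower (-1.39). The part of B, NK or CD8 T cells in these differences was not tested.

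Both ligands of PD-1 were higher in tumor. Cd274 was at 4.57, 4.68, 4.88, 4.83, 4.60 and 4.66 in spleen and at 6.14, 6.75, 6.67, 6.69 and 6.33 in tumor. The spleen libraries were close together and all tumor libraries were above them, with a difference of 1.81 ± 0.11 (SE; adjusted p = 1.07e-08) and a ratio of mean n of 3.65. Pdcd1lg2 was at 2.72, 2.66, 3.02, 2.73, 2.56 and 2.41 in spleen and at 4.69, 5.49, 5.70, 4.96 and 4.14 in tumor. The tissues were again apart, the difference was 2.31 ± 0.24 (SE; adjusted p = 1.09e-06) and the ratio 6.09. PD-L1 and PD-L2 are known on macrophages and dendritic cells. Of the 8 dendritic cell markers, 7 were higher in tumor (5 to 8 under other scalings), led by Fscn1 (4.66), Itgax (4.53) and Cd83 (3.28). Their summed levels were 8.21 to 8.90 against 4.93 to 5.48 in spleen. Clec9a, Flt3 and Xcr1 were low, with tumor means of 0.94, 1.01 and 1.68. Clec9a was higher by 0.57 and Xcr1 by 0.295 (-0.114 with equal library totals). Flt3 differed by 0.405 and was not called (limma, adjusted p = 0.112). Whether dendritic cells themselves differed between the tissues was not tested. Among tumor libraries, wild-type replicate 1 had the lowest Cd274, the lowest myeloid sum (13.38) and the highest Cd3 sum (9.39). Pdcd1lg2 was lowest in knockout replicate 2, whose myeloid sum was 13.74 and whose Cd3 sum, 8.55, was the lowest. The part of myeloid RNA in either ligand was not tested.

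Because tumor libraries held RNA of other cells, each gene was also set against the mean of Cd3d, Cd3e and Cd3g, which encode the CD3 chains of the T cell receptor complex. In tumor, Cd3e was lower by 0.62 (-0.62) and Cd3d by 0.40 (-0.40), while Cd3g differed by -0.03 and was not called (adjusted p = 0.841). Relative to the Cd3 mean of the same library, 7 of the 9 genes were again higher in tumor and 2 lower by limma, against 50.7% and 18.8% of all genes tested, whose median moved to 0.43. Ctla4 was 0.53 above the Cd3 mean in spleen and 1.45 above it in tumor, and its libraries, 0.25 to 0.88 in spleen and 1.19 to 1.73 in tumor, no longer overlapped. Pdcd1 went from -2.80 to -0.20, Tigit from -1.85 to 0.45 and Havcr2 from -6.73 to -1.47. Btla went from -2.43 to -4.72, and Cd160, from -3.89 to -5.01, kept overlapping libraries. The SD over the 5 tumor libraries went from 0.61 as deposited to 0.47 relative to the Cd3 mean for Btla and from 0.92 to 0.62 for Cd160. It went the other way for Tigit (0.13 to 0.30), Havcr2 (0.14 to 0.29) and Cd274 (0.27 to 0.47), and moved by less than 0.1 for the other 4 genes. This scaling sets a gene against T cell RNA and removes nothing that other cells contribute.

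**Figure D2:**
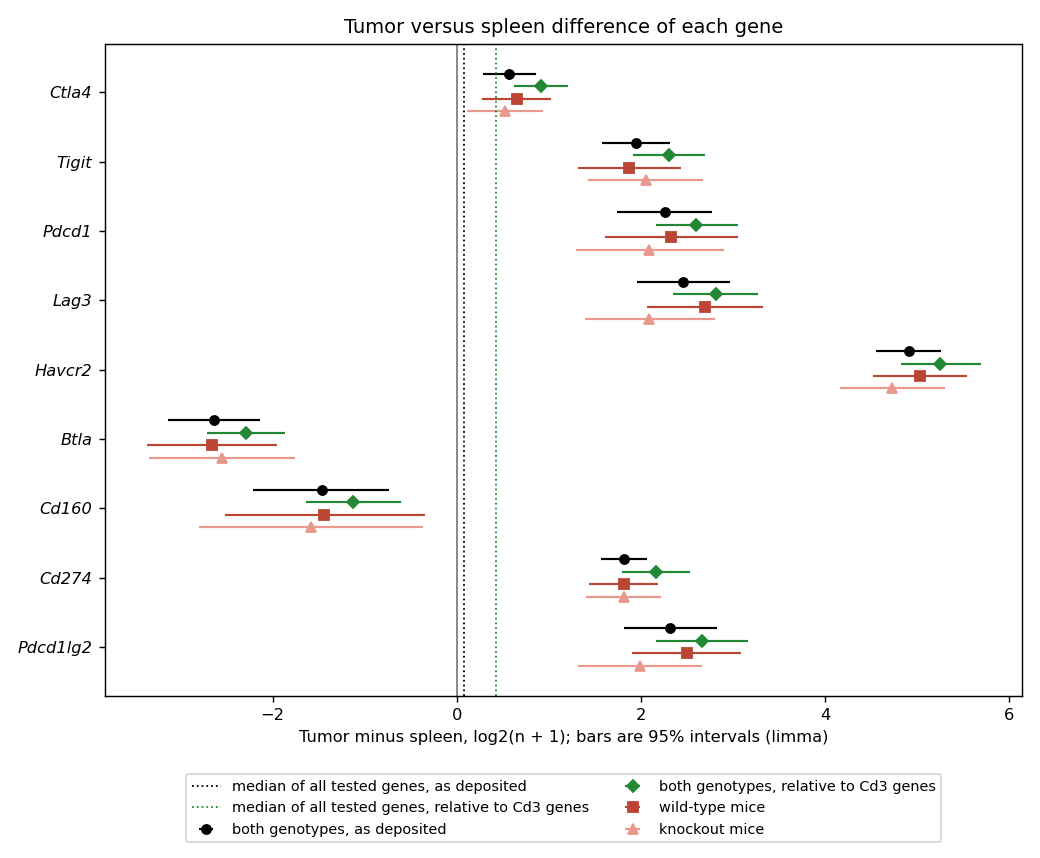
Difference between tumor and spleen of each gene on the log2(n + 1) scale (horizontal axis), as deposited, relative to the Cd3 genes, and as deposited within each genotype, with 95% intervals from limma. Dotted lines give the median of all genes tested, 0.08 as deposited and 0.43 relative to the Cd3 genes, and every interval lies on one side of 0, with Btla and Cd160 below it.

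The pattern was also read within each genotype. In wild-type mice 7 of the 9 genes were called higher in tumor, against 39.2% of all genes, and 2 lower, against 31.3%. In knockout mice the same counts were obtained, against 36.2% and 29.5% of all genes. Havcr2 differed by 5.03 in wild-type and 4.73 in knockout mice, and Cd274 by 1.81 in both. The genotype-by-tissue interaction was called for 0 of the 9 genes and for 0 of all genes (0%) by limma, and at an unadjusted p below 0.05 for 0 of the 9, against 383 or 2.76% of all. Interaction estimates ran from -0.60 for Lag3 (95% interval -1.55 to 0.34) to 0.18 for Tigit (-0.66 to 1.01). The widest interval was that of Cd160 (-1.77 to 1.49). For all genes but Ctla4 (-0.68 to 0.43) and Cd274 (-0.55 to 0.55), the interval held a change of the tissue difference by 1 log2 unit in at least 1 direction. Within a genotype the calls of Cd160 and Ctla4 were the ones lost when single libraries were left out. Cd160 in wild-type mice was no longer called without spleen replicate 2 (-1.28), spleen replicate 3 (-1.35), tumor replicate 2 (-1.01) or tumor replicate 3 (-1.34), and in knockout mice without spleen replicate 1 (-1.50) or tumor replicate 2 (-0.76). Ctla4 in knockout mice was no longer called without spleen replicate 3 (0.44) or tumor replicate 1 (0.23). In both genotypes Ctla4 was also not called after median centring (0.42 in wild-type and 0.32 in knockout mice), quantile normalization (-0.24 and -0.30) or with equal library totals (0.04 and -0.11), which left 8 of the 9 genes.

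A second question was whether these genes differed between knockout and wild-type mice in either tissue. Only the knockout mice carried FOXP3-CreYFP, so the parts of this allele and of the Cd177 deletion cannot be told apart. In spleen, limma called 0 of the 9 genes between knockout and wild type, and 0 of all genes (0%), and at an unadjusted p below 0.05 there were 0 of the 9 and 2.02% of all. In tumor, 0 of the 9 were called, against 0.0072% of all genes (1 gene), and 1 of the 9, Pdcd1lg2, had an unadjusted p below 0.05, against 4.56% of all. Pdcd1lg2 was at 4.69, 5.49 and 5.70 in wild-type and 4.96 and 4.14 in knockout tumors, groups that overlapped, with a difference of -0.74 ± 0.30 (SE; limma, unadjusted p = 0.0332, adjusted p = 1). For 3 of the 9 genes, Lag3, Pdcd1 and Havcr2, both knockout tumor libraries lay below all 3 wild-type ones, as they did for 6.9% of all genes tested. Lag3 was at 6.55, 6.43 and 6.50 in wild-type and at 5.73 and 5.86 in knockout tumors, with a difference of -0.70 (95% interval -1.40 to 0.01; limma, unadjusted p = 0.0526, adjusted p = 1). Pdcd1 differed by -0.42 (95% interval -1.22 to 0.39) and Havcr2 by -0.24 (-0.81 to 0.33). Markers of CD8 T cells were also lower without overlap, with Cd8a at 5.98, 5.63 and 5.85 in wild-type and 5.46 and 4.07 in knockout tumors and Prf1 at 6.21, 6.04 and 5.85 against 5.25 and 4.53. Gzmb and the summed CD8 T and NK list (8.99 to 9.42 against 8.06 and 9.16) overlapped, and the part of these cells in the values of Lag3, Pdcd1 and Havcr2 was not tested. Of the Treg markers, Foxp3, Il2ra and Ikzf2 were higher in knockout tumors without overlap, and Cd4 and Tnfrsf18 overlapped. The share of all genes with both knockout tumor libraries above all 3 wild-type ones was not counted. Foxp3 was at 5.54, 4.72 and 5.24 in wild-type and 5.87 and 6.12 in knockout tumors. The part of this difference in the values of the 9 genes was not tested either. As deposited, the interval for Ctla4 was -0.24 to 0.59 in tumor and -0.08 to 0.66 in spleen, and for Cd160 in tumor it was -1.55 to 0.88. Relative to the Cd3 genes, knockout differed from wild-type tumors by -0.48 for Lag3, -0.20 for Pdcd1 and -0.02 for Havcr2. On that scale Pdcd1lg2 differed by -0.525 (95% interval -1.3 to 0.249). Ctla4 differed by 0.39 (95% interval 0.005 to 0.77, limma, adjusted p = 0.87) and was not called. With 2 knockout tumor libraries, changes of this size could not be told from the spread between libraries.

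Per kilobase of annotated exon, the order of the genes differed between the tissues. In spleen, Ctla4 had a mean n of 123 per kilobase and Tigit 60.7, and their ranges did not overlap with each other or with the rest. Pdcd1 (15) and Btla (10.5) came next with overlapping ranges, followed by Cd274 (6.94), Lag3 (6.23), Cd160 (4.77) and Pdcd1lg2 (2.79), each of which overlapped its neighbour. Havcr2 was last at 0.34. In tumor, Tigit (230 per kilobase, range 201 to 250) and Ctla4 (184, range 145 to 238) overlapped at the top, Pdcd1 stood alone at 70.6, and Lag3 (35.7), Cd274 (25.3), Havcr2 (20.3) and Pdcd1lg2 (17.0) overlapped from one to the next. Cd160 (1.75) and Btla (1.55) were last, with overlapping ranges. Btla thus went from the fourth place to one of the last 2, and Havcr2 from the last to the sixth. Across genes n did not rise with transcript length, with slopes of log2 n on log2 length of -0.04 to -0.01 in spleen and -0.36 to -0.28 in tumor libraries, so n may already be scaled per length. Without the division by length, Ctla4 (mean n of 428) stood before Tigit (212) in tumor as well, Btla (5.27) stood before Cd160 (4.63) at the end of the order, and 7 of the 9 genes in spleen and 3 of the 9 in tumor held the same rank.

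**Figure D3:**
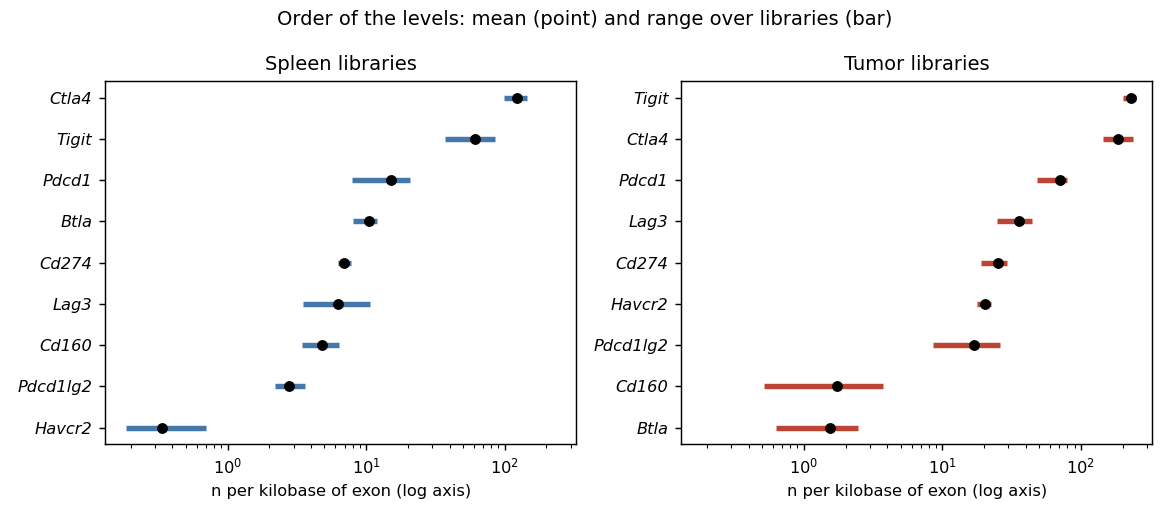
Mean n per kilobase of exon (point) and its range over the 6 spleen and the 5 tumor libraries (bar) on a logarithmic axis, with genes ordered by their mean in each tissue. Havcr2 is last in spleen at 0.34 and sixth in tumor at 20.3, and Btla goes from 10.5 to 1.55.

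Receptors that compete for a ligand were compared within each library, where a scaling factor common to a library largely cancels. Since transcripts differ in length, only the change of such a difference between tissues is read. The slope of log2 n on log2 length, given above, also differed between the tissues, so such a change may hold a part tied to length. That part was not tested. CD28 shares CD80 and CD86 with CTLA-4, and CD226 shares PVR and nectin-2 with TIGIT. Ctla4 minus Cd28 was 1.18, 1.25, 0.99, 1.19, 1.30 and 0.89 in spleen and 2.68, 2.65, 2.76, 3.08 and 2.93 in tumor, with no overlap. The mean difference went from 1.13 ± 0.16 (SD, n = 6) to 2.82 ± 0.18 (SD, n = 5) on the log2 scale, a change of 1.69 (p = 0.00433 by a two-sided exact permutation test, which can go no lower here; adjusted p = 0.00649 over 3 pairs). Cd28 itself was lower in tumor by 1.12 on the log2 scale (-1.12). Tigit minus Cd226 was 0.76, -0.48, 0.64, 0.42, 0.02 and 0.18 in spleen and 2.60, 3.24, 3.40, 2.96 and 3.97 in tumor, again without overlap. The mean went from 0.26 ± 0.46 (SD, n = 6) to 3.23 ± 0.51 (SD, n = 5), a change of 2.98 (exact permutation test, p = 0.00433, adjusted p = 0.00649). Cd226 was lower by 1.03 (-1.03) in tumor.

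For the 2 ligands of PD-1, the difference of Cd274 minus Pdcd1lg2 was 1.85, 2.02, 1.86, 2.10, 2.04 and 2.26 in spleen and 1.45, 1.26, 0.97, 1.73 and 2.19 in tumor. The ranges overlapped through knockout tumor replicate 2, and the mean went from 2.02 ± 0.15 (SD, n = 6) to 1.52 ± 0.46 (SD, n = 5), a change of -0.50 (exact permutation test, p = 0.0476, adjusted p = 0.0476). This call was lost when any library other than knockout tumor replicate 2 was left out, with changes of -0.56 to -0.37, and with a pseudocount of 5 the change was -0.13.

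**Figure D4:**
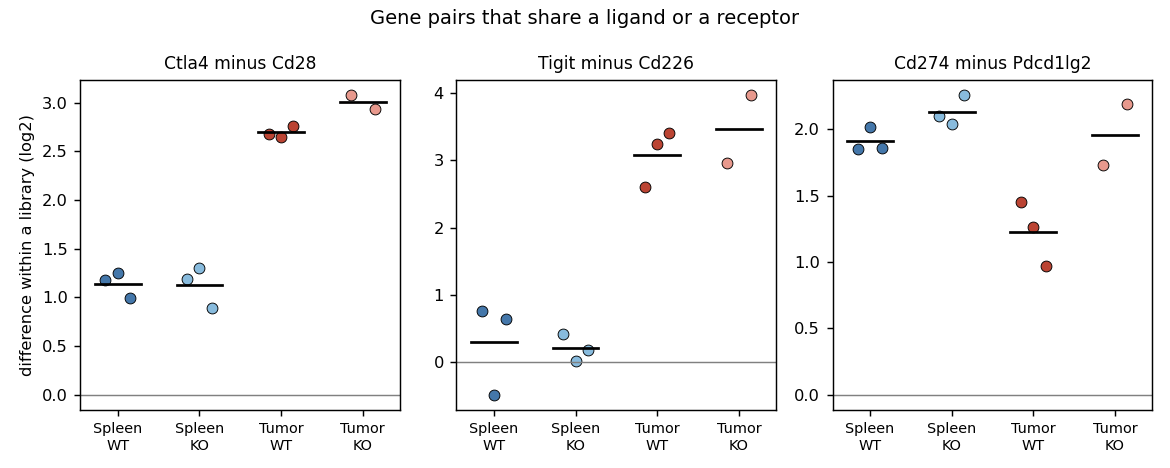
Difference between the log2(n + 1) values of 2 genes of the same library (vertical axis) in the 4 groups, with points for libraries and bars for group means. Ctla4 minus Cd28 and Tigit minus Cd226 are higher in all 5 tumor libraries than in all 6 spleen libraries, and the tissues overlap for Cd274 minus Pdcd1lg2.

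The genes that encode ligands and other partners of these receptors were read from the same fit, in which 43.1% of all genes tested were called higher and 35.9% lower. Of 13 partner genes tested, 11 were higher and 2 lower in tumor, with a median difference of 1.01. Under the other scalings 7 to 11 were higher and 1 to 3 lower. Over these scalings 3286 to 7051 of all genes tested were called higher and 2613 to 7819 lower. Lgals3, a galectin that binds LAG-3 among other glycoproteins, was higher by 6.48 and Cd80 by 3.02, whereas Fgl1, a soluble ligand of LAG-3, differed by -0.84 and Tnfsf14, a cytokine that also binds HVEM, by -0.36. Relative to the Cd3 genes Tnfsf14 differed by -0.02 and was not called. Tnfrsf14, which encodes the BTLA and CD160 ligand HVEM, was higher by 0.56 but at -0.05 with equal library totals. Of 4 other receptors that share ligands or family with CTLA-4 and TIGIT, Icos rose by 2.21 while Cd96 (-1.59), Cd28 (-1.12) and Cd226 (-1.03) were lower. Of 9 other inhibitory receptors tested, 7 were higher and 1 lower with a median of 1.86, and under other scalings 6 or 7 were higher and 1 to 3 lower. The greatest rises were those of Lair1, a collagen receptor, and Pilra, a receptor of myeloid cells, at 3.89 and 3.39, and Cd5, which dampens antigen receptor signals in T cells, was lower, at -0.92. Vsir, which encodes the checkpoint protein VISTA, was higher by 0.27 but at -0.35 with equal library totals and -0.30 after quantile normalization. Of 2 other ligands of this kind tested, Icosl was higher by 0.66, a call that was lost under every other scaling but that to the Cd3 genes, and Cd200 differed by -0.42 (limma, adjusted p = 0.324). The 8 genes listed as encoding proteins that act on the tails of these receptors had a median of 0.02, with 3 higher and 3 lower. With equal library totals 1 was higher and 7 lower, where 3286 of all genes tested were called higher and 7819 lower. Of the 8, the adaptor Grb2 was higher by 1.04 and Inpp5d, which encodes the phosphatase SHIP-1, by 0.26 (-0.37 with equal totals). Sh2d1a, the adaptor SAP, differed by -1.26 and Inpp5e by -0.82. That the product of Inpp5e acts on these tails is not established, so its place on the list is uncertain.

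**Figure D5:**
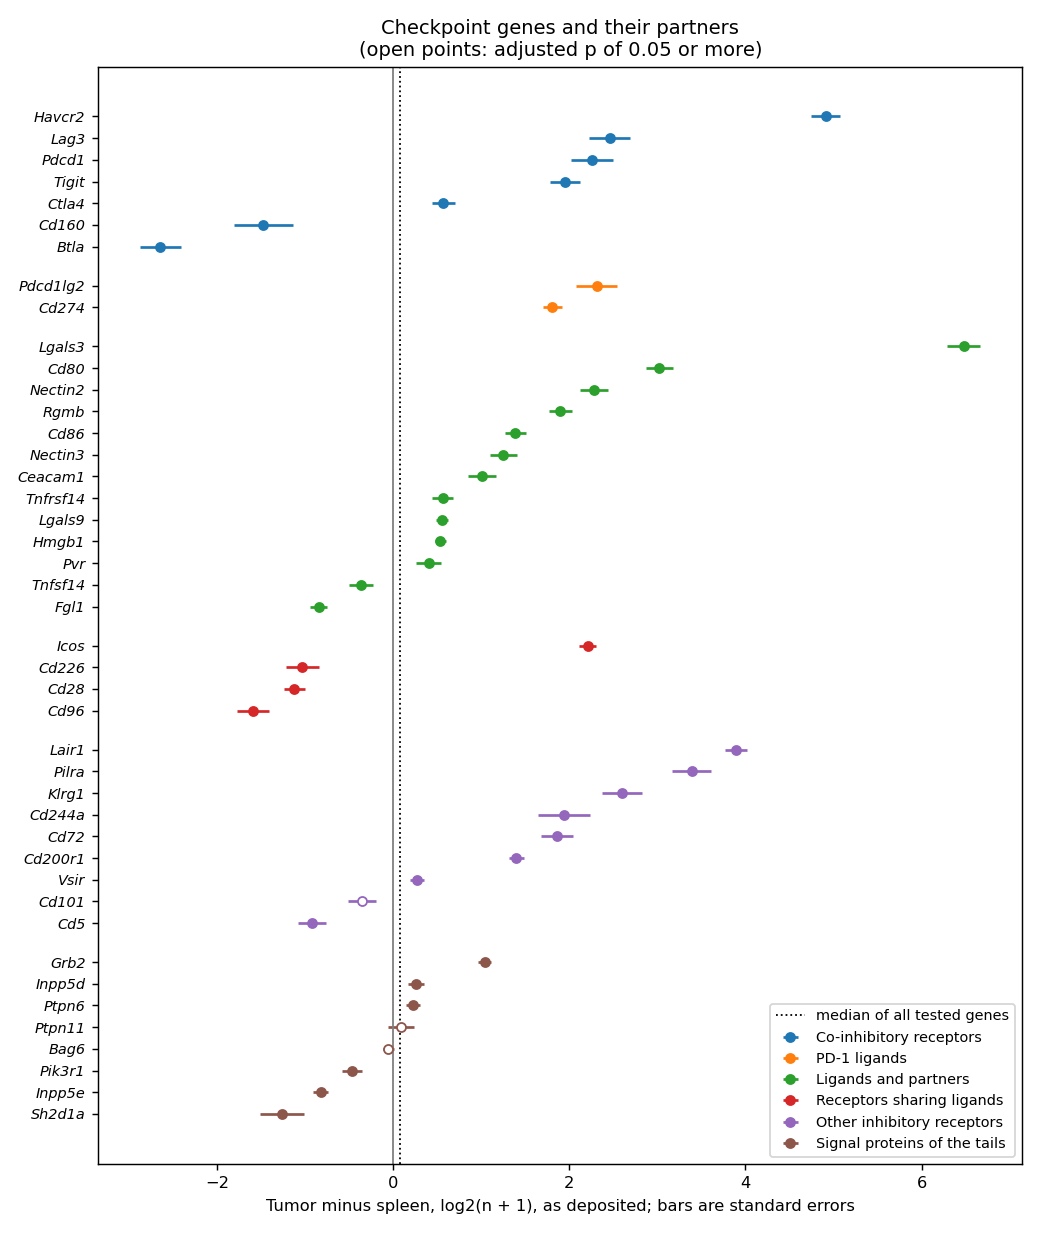
Difference between tumor and spleen on the log2(n + 1) scale (horizontal axis, bars are standard errors) for the 9 checkpoint genes and 34 genes of 4 partner lists, with open points for genes that were not called and a dotted line at the median of all genes tested. The points run from -2.64 for Btla to 6.48 for Lgals3.

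The costimulatory receptors, a list of the same size, gave a mixed picture as well. Of the 9, 5 were higher in tumor and 4 lower, against 43.1% and 35.9% of all genes tested. The median difference was 1.08, and the counts were the same under each other scaling. Over these scalings 3286 to 7051 of all genes tested were called higher and 2613 to 7819 lower. Tnfrsf9 (4-1BB) was higher by 3.33 and Icos by 2.21, and Tnfrsf25 (-2.54) and Cd27 (-1.57) were lowest. The difference between the lists was not tested.

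For each of the 9 genes, the genes with the most similar profile over the 11 libraries were found by the root mean square difference between log2 profiles centred on their own means. Most of this likeness lies in the step between tissues, and the compared genes come from the same libraries. Closest to Pdcd1 were Ttc39c (0.25), Penk (0.29) and Bhlhe40 (0.30), and closest to Lag3 were Penk (0.30), Gadd45g (0.31) and Vdr (0.32). Havcr2 was closest to Rnase4 (0.21), Gda (0.22) and Fabp5 (0.26), and Tigit to Plscr1 (0.16), Pmepa1 (0.17) and Abhd4 (0.20). For Ctla4 these were Hsf2 (0.12), Gtf2f2 (0.13) and Taf10 (0.13), and for Btla they were Lrig1 (0.17), 4930512M02Rik (0.22) and Zfp831 (0.26). Cd160 was closest to Polg2 (0.29), Gm2237 (0.29) and Sh2d1a (0.31), Cd274 to genes that included Rnf149 (0.13) and Mrpl14 (0.14), and Pdcd1lg2 to Flt1 (0.17), Serpinb9 (0.27) and Serpinb6b (0.28). Penk was the only gene on the lists of both Pdcd1 and Lag3.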

How the data were processed

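RNA of sorted splenic Tregs and TI-Tregs was depleted of ribosomal RNA and sequenced. Per the labels and the methods, the authors pseudoaligned reads with kallisto (version not given in the sources used here) to mm10, processed estimated counts with sleuth 0.30.0, summed them by gene symbol and deposited log2 values, log2(n + 1). The methods give an approximate read depth per library, but the scaling of n from the counts is not stated. No counting interval was therefore given. The deposited log2 values were used without further normalization. Genes with a mean of at least 0.5 were kept, which removed 707. Moderated linear models with a mean-variance trend (limma 3.58.1, R 4.3.3) compared 5 tumor with 6 spleen libraries and, with a mean for each of 4 groups, tissues within genotypes and genotypes within tissues. A gene was called where its p, adjusted over all genes tested by the Benjamini-Hochberg method, was below 0.05. The fit was tested on simulated data. Within-library differences of 3 gene pairs were compared by exact permutation tests. Groups were taken from the labels, which do not say whether libraries come from separate mice, so p-values measure only the spread between these libraries. Spleens came from the tumor-bearing mice, but the numbers are not stated to pair the libraries, and deviations of same-numbered libraries correlated at -0.128 to 0.0375. Positions and overlaps came from GENCODE M21, near copies from BLAST 2.17.0 (at least 90% identity), and promoters from RefSeq. Named were the 9 genes, the pair genes, up to 2 genes with the largest called rise and 2 with the largest called fall of each partner list, the T cell and Treg markers, and 3 similar profiles a gene, of which 1 for Cd274 is not reported here. Clec4g, Lilrb4a, Cd276, Vtcn1 and Vsig4 were not analysed here. Genes of other cells named beside a result (Lyz2, Cd8a, Gzmb, Prf1, Klrd1, Nkg7, Klrb1c, Cd83, Clec9a, Flt3, Xcr1) and the genes Tnfrsf14, Vsir and Cd200 were chosen after their values were seen. The 9 genes and all lists were chosen with earlier results of these data known. Alternatives covered scaling, pseudocount, filters, the model, the correction and leaving out each library.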

Additional observations from a re-analysis of the deposited data

Results flagged for a closer look

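Pdcd1 in tumor library 2 of the knockout mice was 6.55 on the log2(n + 1) scale, apart from the other 4 tumor libraries at 7.11 to 7.28, by Dixon's test of the gap over the range. That library also had the lowest Cd8a of the tumor libraries, 4.07, and the lowest Cd3 sum, 8.55. In all, 24 groups of 4 or more libraries were examined in this way and 1 was singled out, where chance gives about 1.2.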

How the results depend on the processing

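In the comparison of tumor with spleen over both genotypes, Pdcd1, Lag3, Havcr2, Tigit, Btla, Cd274 and Pdcd1lg2 kept their direction and their call in all 26 alternatives and Cd160 in 25 of 26. Ctla4 kept them in 22 of 26. It turned to -0.29 after quantile normalization, to -0.0565 with equal library totals and to -0.0524 with equal totals without Gm12896, an alternative chosen after seeing the data. These scalings moved the median of all genes from 0.08 to -0.16, -0.44 and -0.44, and the split of all called genes from 5983 higher and 4988 lower to 4626 and 6358, 3286 and 7819, and 3422 and 7954. Median centring gave 4831 and 6219, and scaling to the Cd3 genes 7051 and 2613. The Bonferroni correction, stricter by construction, left 7 of the 9 genes, without Ctla4 and Cd160, and called 3108 higher and 1943 lower of all genes; it left 4 of the 9 in wild-type and 2 of the 9 in knockout mice. Leaving out single libraries left 9 called over both genotypes, and 8 or 9 within each genotype. Within genotypes, median centring, quantile normalization and equal totals each left 8, without Ctla4. Cd274 minus Pdcd1lg2 changed by -0.13 with a pseudocount of 5 and by -0.67 to -0.37 without single libraries, and with a library left out the smaller number of arrangements also limits the exact test. With a replicate block, 9 of the 9 genes were called over both genotypes and within each (block correlation -0.0144), and the block changed no call on the 9 genes. The scaling of n, which is not stated, limits the reading of Ctla4, and the 2 knockout tumor libraries limit comparisons of genotypes in tumor. The unstated scaling also prevents any statement of counting error for Havcr2 in spleen.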
